A study of Homo sapiens with 8 samples.

Results

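The genes described here are 36 that encode the enzymes of glycolysis, the transporters that bring glucose in and let lactate out, the pyruvate dehydrogenase kinases (PDK) and genes of the hypoxia response. They were chosen by symbol from a written list of members: 19 glycolytic enzymes and their regulators, 3 transporters, 4 PDK kinases and 10 hypoxia genes. All 36 were among the 16153 genes of the deposited table, and all 36 were among the 16103 genes tested. RNA had been sequenced in 8 libraries from the HMEC-1 line, human microvascular endothelium of the skin that was immortalised with a viral large T antigen and is no primary vessel lining. The space_microg group (3 libraries) came from cells in weightlessness aboard the International Space Station. The space_1g group (2 libraries) was in orbit as well, on the onboard incubator's centrifuge, which supplied 1 g. The ground group (3 libraries) stayed in a matching facility on Earth, with activation and medium changes at the same times. Both flight groups shared launch, orbit, fixation in space and return, and all 3 groups shared culture at 37 °C with 10% serum on gelatin-coated plastic before the automated units were filled. The protocol given for all 8 libraries names storage at 6 °C until processing, and says nothing separate of storage for ground. The comparisons address weightlessness and the other exposures of flight, which differ from ground together. Whether the replicates of a group were grown as separate cultures is not stated in the labels, and the p-values then cover only library-to-library spread, which may be technical.

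Endothelial cells are known to make most of their ATP by glycolysis, even where oxygen is plentiful. The PDK kinases phosphorylate the pyruvate dehydrogenase complex and so keep pyruvate out of mitochondria, which leaves more of it for lactate dehydrogenase. When oxygen falls, the prolyl hydroxylases of the EGLN family no longer mark HIF1A for destruction, and the stabilised factor raises transcription of glycolytic enzymes, PDK1, glucose and lactate transporters and other targets. HIF1A is regulated mostly as a protein, so its mRNA is not a readout of that switch. PDK4 is best known as a gene of fasting and fatty acid use, driven by PPAR and FOXO factors and glucocorticoids, and lowered by insulin and growth factor signalling.

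Libraries held 24248964 to 35388757 reads in the listed genes, and values are scaled CPM, read counts adjusted for library size. A count of 0 would allow 3 reads, or 0.0855 to 0.12 CPM depending on the library, a floor for counting error only. The first principal component held 61.9% of the variance, and on it space_1g replicate 1 (score -60.7) and ground replicate 3 (-64.7) stood apart from the other 6 libraries (-1.51 to 31.1). The same pair had the highest summed levels of 18 p53 target genes (8812 and 7392 CPM, against 2140 to 4396 CPM in the others) and of 17 interferon genes (3900 and 4682 CPM, against 401 to 1727 CPM). It also had the lowest sums of 18 mitosis genes (2102 and 2613 CPM, against 4730 to 5721 CPM). Log2 differences use all 8 libraries, and the value without this pair follows where it turned sign or moved by over 1.5 times, a choice made after the data were seen. All 15 endothelial markers were in the table, summing to 1724 to 2625 CPM in space_microg, 1943 to 2260 CPM in space_1g and 2801 to 2915 CPM in ground libraries. Mural markers (6 of 7 in the table) summed to 171 to 242 CPM in space_microg, 267 to 431 CPM in space_1g and 235 to 507 CPM in ground libraries. Fibroblast markers (5 of 8) summed to 192 to 335 CPM in space_microg, 203 to 343 CPM in space_1g and 276 to 312 CPM in ground libraries. Keratinocyte markers (2 of 6) summed to at most 4.63 CPM and leukocyte markers (1 of 6) to at most 2.88 CPM in any library. The part of these markers in the results below was not tested.

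Levels were set per kilobase of exon to compare genes. The length was the union of all annotated exons of a gene, and which transcripts were expressed was not determined. Order and shares between genes therefore depend on that length. By this measure, enzymes from aldolase to pyruvate kinase led the set, except PGK1 (69.9 CPM per kb), which was below LDHA (74.3 CPM per kb). GAPDH, which makes the first high-energy phosphate compound of the pathway, averaged 1082 CPM per kb over the 8 libraries. The enolase ENO1 averaged 295 CPM per kb, the triose phosphate isomerase TPI1 265 CPM per kb, the aldolase ALDOA 179 CPM per kb and the pyruvate kinase PKM 103 CPM per kb. At the other end lay PDK3 with 0.22 CPM per kb and EGLN3, an oxygen-sensing prolyl hydroxylase, with 0.15 CPM per kb. HIF1A itself averaged 70.0 CPM per kb. The genes also differed in how steady they were: the highest library exceeded the lowest 1.34-fold for ENO1 and 13.6-fold for PDK4, with a median of 1.81-fold over the 36 genes. HIF1A was among the steadier, at 1.36-fold. ENO1, GAPDH and other abundant enzymes have pseudogenes (62 are named after GAPDH, 39 after BNIP3 and 13 after PGAM1), and 15 of the 36 genes have at least 1, so reads shared with such copies make their levels uncertain. The annotation also places a gene on the other strand over 21 of the 36, and no source used here gives the strand setting of the counting.

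**Figure D1:**
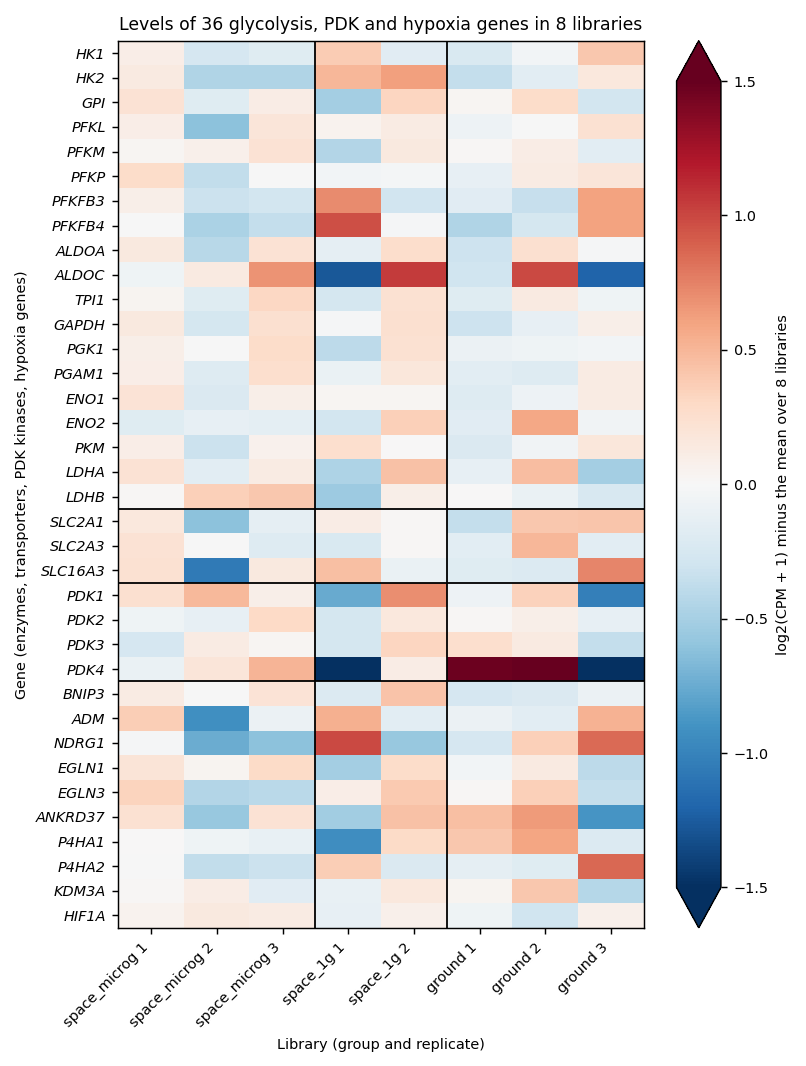
Each row is a gene and each column a library, grouped as space_microg, space_1g and ground; colour is log2(CPM + 1) minus the gene's mean over the 8 libraries, saturating at the ends of the scale. PDK4 is darkest, spanning 14.4 CPM in space_1g replicate 1 to 196 CPM in ground replicate 2, and many rows share a colour in space_1g replicate 1 and ground replicate 3.

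Of 10 isozyme families, 7 had the same leading gene by CPM per kb in every library. HK1, the housekeeping hexokinase that commits glucose to the cell, held 88.4% to 94.4% of hexokinase CPM per kb, and the inducible HK2 the remainder. PFKP, the platelet form of phosphofructokinase, the main control point of the pathway, held 59.0% to 65.5% of its family in every library. ALDOA held 94.2% to 98.6% of aldolase and ENO1 88.5% to 94.1% of enolase. The lactate dehydrogenase subunits were close to even per kb, with LDHA, the subunit associated with lactate production, at 42.9% to 61.6%. In CPM, LDHA was above LDHB in every library, with means of 461 and 203 CPM, so the evenness depends on the exon lengths used. PFKFB3, the endothelial activator of phosphofructokinase through fructose 2,6-bisphosphate, held 70.6% to 78.3% against PFKFB4.

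The PDK kinases and P4HA subunits also changed leader between libraries. PDK4 held 59.1%, 62.5% and 65.9% of PDK CPM per kb in space_microg replicates 1 to 3. It held 32.0% and 56.9% in space_1g replicates 1 and 2, and 81.6%, 80.7% and 39.2% in ground replicates 1 to 3. By CPM per kb, PDK4 was thus the leading kinase in 6 libraries, while PDK2 led with 49.2% in space_1g replicate 1 and 47.3% in ground replicate 3. In CPM, PDK1 was above PDK4 in space_1g replicates 1 (25.8 against 14.4 CPM) and 2 (72.7 against 70.6 CPM). The same held in ground replicate 3 (21.2 against 20.4 CPM). The collagen prolyl 4-hydroxylase subunits divided the libraries the same way: P4HA2 held 31.0% to 35.3% of P4HA CPM per kb in space_microg libraries, 57.8% and 27.9% in space_1g replicates 1 and 2, and 27.5%, 24.3% and 53.6% in ground replicates 1 to 3. By CPM per kb, P4HA2 led only in the pair of libraries with high p53 and interferon genes. That order depends on the exon lengths used: in CPM, P4HA2 was above P4HA1 in every library except ground replicate 2 (169 against 191 CPM).

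**Figure D2:**
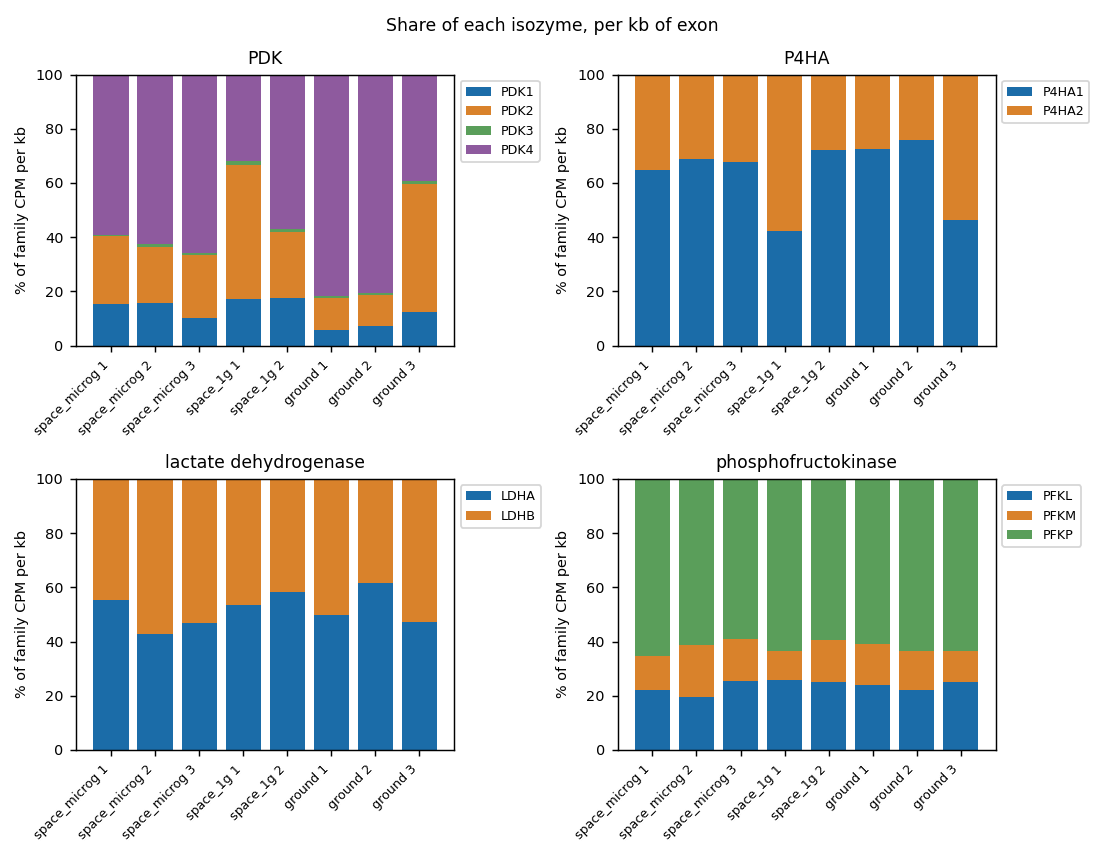
Stacked bars give each isozyme's share of its family's CPM per kb of exon, in percent, for every library of space_microg, space_1g and ground. In the PDK panel PDK4 takes 32.0% and 39.2% in space_1g replicate 1 and ground replicate 3, against 56.9% to 81.6% in the other 6; the lactate dehydrogenase and phosphofructokinase panels vary less.

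The libraries that stood apart were the 2 lowest of the 8 for 10 of the 36 genes: GPI, PFKM, ALDOC, LDHA, LDHB, PDK1, PDK3, PDK4, EGLN1 and P4HA1. They were the 2 highest for 8 others: HK1, PFKFB3, PFKFB4, PKM, SLC16A3, ADM, NDRG1 and P4HA2. Among all genes tested, 21.5% were lowest and 23.6% highest in both libraries, beside 10 of 36 and 8 of 36 here. ALDOC, the brain-type aldolase, had 17.3, 19.9 and 29.5 CPM in space_microg replicates 1 to 3, 6.89 and 38.4 CPM in space_1g replicates 1 and 2, and 14.5, 36.8 and 7.32 CPM in ground replicates 1 to 3. PDK4 in space_1g replicate 1 was 0.204 times its level in replicate 2, and in ground replicate 3 it was 0.108 times the mean of replicates 1 and 2. NDRG1, a hypoxia and stress gene linked to growth arrest and differentiation, ran the other way, at 2.95 times and 1.70 times. PFKFB4 was 2.04 times and 2.02 times as high, and P4HA2 1.51 times and 2.03 times.

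LDHA, the classic HIF target among the enzymes, had 520, 400 and 488 CPM in space_microg replicates 1 to 3, 326 and 610 CPM in space_1g replicates 1 and 2, and 411, 620 and 315 CPM in ground replicates 1 to 3. Its groups overlapped throughout. LDHA and PFKFB4 are both textbook HIF targets, and the pair of libraries was low in the first and high in the second. Space_microg replicate 2 was a further source of spread. It was the lowest library for 15 of the 36 genes, against 16.6% of all genes, and GC content and length accounted for 54.6% of its deviation from the mean of the libraries, against 2.37% to 21.8% in the others. SLC16A3, the lactate exporter MCT4, was an example, with 159, 64.5 and 150 CPM in space_microg replicates 1 to 3, against 120, 118 and 226 CPM in ground replicates 1 to 3.

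Promoters are shown for 4 genes that the spread between libraries or the comparisons turn on: LDHA and P4HA1, known HIF targets that were low in both libraries that stood apart, HK2, whose level in space_1g lay above all other libraries, and PDK4, the most variable gene. Each runs from 250 bases before to 50 bases after the RefSeq gene start, 5′ to 3′ on the gene's own strand, on build GRCh38.p14. LDHA is at chr11:18394313-18394612 (+), P4HA1 at chr10:73096817-73097116 (-), HK2 at chr2:74833877-74834176 (+) and PDK4 at chr7:95596467-95596766 (-). Capitals mark ACGTG or GCGTG, the core letters of the hypoxia response element, on either strand (reverse CACGT or CACGC); where both strands of ACGTG overlap, the run CACGTG is also an E-box and counts as 2 matches.
LDHA: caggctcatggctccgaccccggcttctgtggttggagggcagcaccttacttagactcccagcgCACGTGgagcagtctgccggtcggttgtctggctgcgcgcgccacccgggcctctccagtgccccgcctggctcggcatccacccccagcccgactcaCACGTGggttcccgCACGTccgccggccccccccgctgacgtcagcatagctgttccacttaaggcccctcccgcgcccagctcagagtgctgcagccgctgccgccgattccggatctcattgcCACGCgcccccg
P4HA1: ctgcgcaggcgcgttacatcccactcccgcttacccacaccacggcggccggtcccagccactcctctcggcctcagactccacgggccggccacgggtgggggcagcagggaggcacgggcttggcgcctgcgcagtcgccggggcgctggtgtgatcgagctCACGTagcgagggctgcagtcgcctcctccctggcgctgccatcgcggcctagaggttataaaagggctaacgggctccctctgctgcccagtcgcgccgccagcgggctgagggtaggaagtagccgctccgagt
HK2: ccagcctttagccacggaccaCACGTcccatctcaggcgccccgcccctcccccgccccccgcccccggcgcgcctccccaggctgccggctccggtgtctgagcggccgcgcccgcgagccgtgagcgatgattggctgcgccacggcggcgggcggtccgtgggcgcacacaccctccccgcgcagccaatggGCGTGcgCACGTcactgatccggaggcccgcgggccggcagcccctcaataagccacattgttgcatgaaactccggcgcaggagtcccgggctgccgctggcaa
PDK4: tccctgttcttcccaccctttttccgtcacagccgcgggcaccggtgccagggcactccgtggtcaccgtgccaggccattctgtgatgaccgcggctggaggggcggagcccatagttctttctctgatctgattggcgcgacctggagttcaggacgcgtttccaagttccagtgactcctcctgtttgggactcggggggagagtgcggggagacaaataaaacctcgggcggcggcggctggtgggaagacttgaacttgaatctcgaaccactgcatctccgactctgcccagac

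In these windows LDHA had 6 matches, HK2 had 3, P4HA1 had 1 and PDK4 had 0. RefSeq promoters were matched for 34 of the 36 genes, and 23 of them (67.7%) held at least 1 match. The share was 48.4% among all 27305 promoters of the table and 63.1% among the 10187 promoters of genes tested. ACGTG alone was in 13 of the 34 (38.2%), against 26.6% of promoters of genes tested. BNIP3, a mitophagy receptor and HIF target, also had 6 matches, ALDOC 5 and PGK1 4, whereas PDK1 and P4HA2 had 0. A match describes letters only, and its absence says nothing of a factor bound elsewhere. The genes low in both libraries that stood apart included ones with many matches (LDHA, ALDOC) and with 0 (PDK4, PDK1). Of the genes high in both, HK1, SLC16A3 and P4HA2 had 0 and PFKFB3, PFKFB4, PKM and ADM had 1. No promoter was matched for NDRG1. Whether matches go with the levels in these libraries was not tested.

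In weightless flight none of the 36 genes differed from ground beyond the spread between libraries once adjusted. Of the 36 genes, 16 were higher and 20 lower in space_microg than in ground, with a median log2 difference of -0.03 (range -0.78 to 0.52), beside -0.02 over all genes tested. None passed limma with Benjamini-Hochberg adjustment over all genes (percent called over all genes: 0), and the count at an unadjusted p under 0.05 was also 0 of 36, against 4.32% of all genes. Without the pair that stood apart that count was 3 of 36 (PDK4, P4HA1 and BNIP3), against 12.6% of all genes, and 0 passed adjustment. The space_microg and ground libraries did not overlap for 3 genes, LDHB, BNIP3 and PGK1, all higher in space_microg, against 14.4% of all genes. Over all 16103 genes, limma and edgeR called 0, with 696 and 741 genes at an unadjusted p under 0.05. DESeq2 called 3 of the 13214 genes to which it gave an adjusted p, and 871 of 16018 were at an unadjusted p under 0.05. In bulk RNA, fewer cells with a transcript and less of it per cell cannot be told apart.

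The differences of the 19 enzymes were spread around 0, 11 higher and 8 lower in space_microg, with a median of 0.04. Once the GC content and length trend of each library was removed, PFKL (-0.16 to 0.11), PFKP (-0.09 to 0.05) and PKM (-0.02 to 0.08) turned from lower to higher. No enzyme turned the other way. LDHB (chr12:21635342-21757857, GENCODE 29 on GRCh38), the heart-type lactate dehydrogenase subunit, had 202, 256 and 264 CPM in space_microg replicates 1 to 3, against 199, 186 and 168 CPM in ground replicates 1 to 3. Every space_microg library was above every ground library, with 202 and 199 CPM the closest values, and the log2 difference was 0.37 ± 0.20 (SE, adjusted p = 0.866). PGK1, the kinase that makes the first ATP of the payoff phase, had 406, 381 and 461 CPM in space_microg, against 359, 365 and 371 CPM in ground replicates 1 to 3. All 3 transporters were lower in space_microg, with a median of -0.35, or -0.16 without the pair. After removal of the GC content and length trend, SLC2A1 was at -0.20, SLC2A3 at -0.05 and SLC16A3 at -0.11. The main glucose importer SLC2A1 had 108, 62.8 and 88.3 CPM in space_microg replicates 1 to 3, against 75.0, 128 and 129 CPM in ground replicates 1 to 3, which overlapped. Its log2 difference was -0.35 ± 0.26 (adjusted p = 0.866), and -0.21 without the pair.

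Among the kinases, PDK4 had 60.8, 74.6 and 93.9 CPM in space_microg replicates 1 to 3, against 184, 196 and 20.4 CPM in ground replicates 1 to 3. The weightless libraries lay close together, between a pair of high ground libraries and a low one. The difference was -0.27 ± 0.86 (adjusted p = 0.961), smaller than its own SE. Without space_1g replicate 1 and ground replicate 3 it was -1.32 (adjusted p = 0.133), and the other alternatives gave adjusted p-values of 0.735 to 0.999. The edgeR and DESeq2 fits gave -0.77 and -0.81, and the sign turned without ground replicate 1 (0.23) or ground replicate 2 (0.28). PDK1, the HIF-induced kinase, had 52.4, 62.3 and 47.3 CPM in space_microg, against 42.1, 56.8 and 21.2 CPM in ground replicates 1 to 3. Its difference of 0.52 ± 0.43 (adjusted p = 0.866) was 0.13 without the pair. PDK2, the widely expressed form, had 31.0, 29.9 and 40.2 CPM in space_microg and 33.1, 34.7 and 29.9 CPM in ground libraries (0.04 ± 0.19, and -0.02 without the pair). PDK3 was near 1 CPM throughout, at 0.74, 1.25 and 1.11 CPM in space_microg and 1.46, 1.27 and 0.61 CPM in ground libraries (-0.04 ± 0.26, and -0.23 without the pair).

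Of the 10 hypoxia genes, 3 were higher and 7 lower in space_microg, with a median of -0.14. NDRG1 had the most negative difference of the set: it had 203, 123 and 134 CPM in space_microg replicates 1 to 3, against 174, 265 and 374 CPM in ground replicates 1 to 3. The groups overlapped through space_microg replicate 1 and ground replicate 1, and the difference was -0.78 ± 0.42 (adjusted p = 0.866), or -0.52 without the pair. BNIP3 (chr10:131966455-131982013) had 71.0, 65.0 and 74.9 CPM in space_microg, against 54.4, 55.7 and 61.3 CPM in ground replicates 1 to 3. These did not overlap, at 0.29 ± 0.18 (adjusted p = 0.866), and the many pseudogenes of BNIP3 limit that value.

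P4HA1 (chr10:73007217-73096974), which builds the hydroxyproline of collagen, had 127, 120 and 117 CPM in space_microg replicates 1 to 3, against 168, 191 and 110 CPM in ground replicates 1 to 3. It was lower in every weightless library than in ground replicates 1 and 2 but not than in ground replicate 3. The difference was -0.32 ± 0.31 (adjusted p = 0.877), and -0.56 without the pair. P4HA2 had 191, 149 and 153 CPM in space_microg, against 175, 169 and 349 CPM in ground libraries, and its -0.41 ± 0.29 was -0.08 without the pair. Among the sensors, EGLN1 had 87.4, 78.3 and 93.6 CPM in space_microg and 74.4, 84.1 and 57.9 CPM in ground libraries (0.27 ± 0.23, adjusted p = 0.866), and the difference was 0.12 without the pair. HIF1A had 372, 396 and 392 CPM in space_microg, against 343, 292 and 380 CPM in ground libraries. Its 0.20 ± 0.15 (adjusted p = 0.866) became -0.04 once the GC content and length trend of each library was removed.

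**Figure D3:**
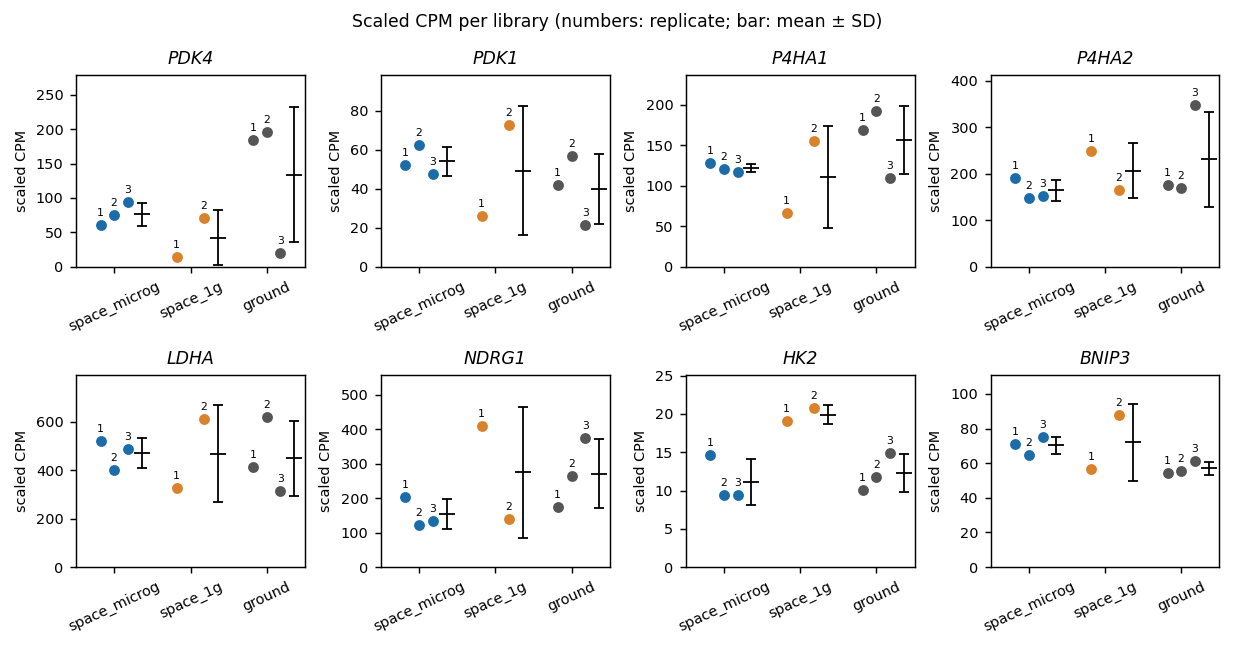
Points are scaled CPM of each library, numbered by replicate, with the mean ± SD beside them, for 8 genes in space_microg (n = 3), space_1g (n = 2) and ground (n = 3). For PDK4 the 3 space_microg libraries lie between 60.8 and 93.9 CPM while ground libraries lie at 184, 196 and 20.4 CPM; for HK2 both space_1g libraries (19.0 and 20.8 CPM) lie above the rest.

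Other genes of these pathways were read from further lists, and none passed adjustment. Of 17 other glycolysis genes in the table, 11 were higher and 6 lower in space_microg than in ground (median 0.11), and 0 were at an unadjusted p under 0.05. All 7 genes of the pentose phosphate pathway, the side branch that makes NADPH and ribose, were higher, by 0.02 to 0.30 (median 0.13), and none of their groups was free of overlap. Of the 11 genes of pyruvate entry and the pyruvate dehydrogenase complex, which the PDK kinases restrain, 8 were higher (median 0.22), with 4 of 11 free of overlap, against 14.4% of all genes. DLD, the complex's dihydrolipoamide dehydrogenase, had 90.2, 103 and 103 CPM in space_microg replicates 1 to 3, against 82.4, 82.4 and 66.4 CPM in ground replicates 1 to 3 (0.36 ± 0.17, adjusted p = 0.866). PDP1, the phosphatase that opposes the PDK kinases, had 65.1, 67.3 and 71.6 CPM in space_microg, against 58.4, 62.4 and 53.8 CPM in ground libraries (0.22 ± 0.14). None of the 11 was at an unadjusted p under 0.05.

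Of 35 other HIF targets in the table, 16 were higher and 19 lower in space_microg than in ground (median -0.09), and 3 were at an unadjusted p under 0.05, 1 higher and 2 lower, against 4.32% of all genes. Without the pair the median was -0.01 and the count 5 of 35, against 12.6% of all genes. FAM162A, a mitochondrial HIF target, had 23.4, 27.8 and 30.1 CPM in space_microg, against 18.9, 14.8 and 20.9 CPM in ground libraries (0.56 ± 0.21, adjusted p = 0.866). PPP1R3C, a glycogen-targeting subunit of protein phosphatase, had 51.6, 43.1 and 42.9 CPM in space_microg, against 73.2, 54.9 and 74.0 CPM in ground libraries (-0.54 ± 0.23, adjusted p = 0.866). Of the 14 regulators of HIF in the table, 7 were higher and 7 lower (median -0.04). Among them CUL2, scaffold of the ubiquitin ligase that destroys HIF1A, had 94.0, 95.1 and 87.1 CPM in space_microg, against 81.8, 74.0 and 71.7 CPM in ground libraries (0.28 ± 0.13, adjusted p = 0.866).

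In flight at 1 g, PDK4 had the largest difference from ground, lower in space_1g, and the inducible hexokinase HK2 was the gene whose libraries did not overlap, higher in space_1g; neither passed adjustment. Of the 36, 21 were higher and 15 lower in space_1g, with a median of 0.03 (0.15 without the pair), beside 0.01 over all genes tested. None passed limma after adjustment (percent called: 0), and only HK2 was at an unadjusted p under 0.05 (1 of 36, against 1.55% of all genes). HK2 was also the only one of the 36 whose space_1g and ground libraries did not overlap (1 of 36, against 10.7% of all genes), so the set held no more such genes than the table at large. Without the pair, which leaves 1 space_1g library assumed to vary like the others, 4 of 36 were at an unadjusted p under 0.05 (PDK4, BNIP3, HK2 and PDK1), against 5.22% of all genes. Their adjusted p was 0.895 each. Over the genes each tested, limma, edgeR and DESeq2 called 0, with 249, 227 and 327 genes at an unadjusted p under 0.05. This comparison shares its ground libraries with the one above.

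HK2 (chr2:74833981-74893359), the inducible hexokinase that binds mitochondria, had 19.0 and 20.8 CPM in space_1g replicates 1 and 2, against 10.1, 11.8 and 14.9 CPM in ground replicates 1 to 3. Both centrifuged libraries were above every ground library, and alike although space_1g replicate 1 stood apart in its p53, interferon and mitosis genes. HK2 averaged 19.9 ± 1.27 CPM in space_1g (SD, n = 2) and 12.3 ± 2.44 CPM in ground (SD, n = 3), a log2 difference of 0.67 ± 0.26 (adjusted p = 1). Without the pair that stood apart, it was 0.87, and over all alternatives the adjusted p was 0.590 or above. PFKFB4 had 33.8 and 16.6 CPM in space_1g, against 12.1, 13.8 and 26.1 CPM in ground libraries (0.51 ± 0.39, adjusted p = 1), and the difference was 0.34 without the pair. GAPDH had 3165 and 3765 CPM in space_1g, against 2583, 2922 and 3403 CPM in ground libraries (0.23 ± 0.27, and 0.45 without the pair). PKM had 1041 and 879 CPM in space_1g, against 754, 849 and 989 CPM in ground libraries (0.16 ± 0.21). Both overlapped between the groups.

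PDK4 (chr7:95583499-95596491) had 14.4 and 70.6 CPM in space_1g replicates 1 and 2, against 184, 196 and 20.4 CPM in ground replicates 1 to 3. The groups overlapped only through ground replicate 3, and the difference was -1.47 ± 0.96 (adjusted p = 1). It was -1.41 without the pair (adjusted p = 0.895), -0.36 without space_1g replicate 1 alone and -2.58 without replicate 2. PDK1 had 25.8 and 72.7 CPM in space_1g, against 42.1, 56.8 and 21.2 CPM in ground libraries (0.22 ± 0.48, and 0.56 without the pair). PDK2 had 26.9 and 36.5 CPM in space_1g (-0.05 ± 0.21, and 0.10 without the pair), and PDK3 had 0.72 and 1.59 CPM in space_1g (0.02 ± 0.29, and 0.13 without the pair).

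Of the hypoxia genes 5 were higher and 5 lower in space_1g (median 0.00, or -0.05 without the pair). P4HA1 had 66.0 and 155 CPM in space_1g, against 168, 191 and 110 CPM in ground libraries (-0.58 ± 0.35, adjusted p = 1), and the difference was -0.21 without the pair. BNIP3 had 56.5 and 87.9 CPM in space_1g, against 54.4, 55.7 and 61.3 CPM in ground libraries (0.30 ± 0.20, adjusted p = 1), and the difference was 0.67 without the pair. The scarce sensor EGLN3 had 1.17 and 1.66 CPM in space_1g, against 1.06, 1.59 and 0.58 CPM in ground libraries (0.24 ± 0.33). Among the other HIF targets, 21 were higher and 14 lower (median 0.05), with 1 of 35 at an unadjusted p under 0.05, against 1.55% of all genes, or 4 of 35 without the pair, against 5.22%. The first was AK4, a mitochondrial adenylate kinase, with 22.2 and 37.5 CPM in space_1g, against 11.7, 25.9 and 13.1 CPM in ground libraries (0.82 ± 0.36, adjusted p = 1), which overlapped. EDN1, the vasoconstrictor peptide endothelin, had 11.1 and 24.2 CPM in space_1g, against 58.4, 40.5 and 18.9 CPM in ground libraries (-1.07 ± 0.47, adjusted p = 1). None of 17 other glycolysis genes, 11 pyruvate dehydrogenase genes, 14 HIF regulators or 7 pentose phosphate genes was at an unadjusted p under 0.05, and their medians were 0.01, 0.00, -0.05 and 0.13, or 0.09, 0.14, -0.09 and 0.16 without the pair.

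Between the flight groups, which differ by the centrifuge, 16 of the 36 genes were higher and 20 lower in space_microg than in space_1g, with a median of -0.01 (-0.03 over all genes). None passed limma after adjustment (percent called: 0), HK2 alone was at an unadjusted p under 0.05 (1 of 36, against 1.32% of all genes), and HK2 alone had groups without overlap (1 of 36, against 14.2% of all genes). Over the genes each tested, limma, edgeR and DESeq2 called 0, with 212, 221 and 339 at an unadjusted p under 0.05. Among the 36 genes, removal of the GC content and length trend turned PFKL (-0.20 to 0.15), ALDOA, GAPDH, ENO1 and BNIP3 from lower to higher. The same step turned LDHA and HIF1A (0.13 to -0.13) from higher to lower. Without the pair that stood apart, which leaves 1 space_1g library, 7 of the 36 genes were higher and 29 lower, beside 7927 higher and 8176 lower over all genes, with a median of -0.15 and 1 gene of 36 (HK2) at an unadjusted p under 0.05, against 0.919% of all genes.

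HK2 had 14.6, 9.40 and 9.43 CPM in space_microg replicates 1 to 3, against 19.0 and 20.8 CPM in space_1g replicates 1 and 2. Every weightless library was lower than both centrifuged ones, at -0.81 ± 0.26 (adjusted p = 0.912), and the value kept its sign in all alternatives, with adjusted p-values of 0.341 or above. Against ground, space_microg differed by -0.14 ± 0.23 and overlapped, and the difference was -0.00063 without the pair. PFKFB4 had 16.7, 11.8 and 12.9 CPM in space_microg, against 33.8 and 16.6 CPM in space_1g (-0.75 ± 0.39, adjusted p = 0.912), and -0.26 without the pair. LDHB had 202, 256 and 264 CPM in space_microg, against 136 and 211 CPM in space_1g (0.49 ± 0.22, adjusted p = 0.912), and 0.18 without the pair. PFKM, the muscle phosphofructokinase, had 100, 103 and 114 CPM in space_microg, against 71.7 and 109 CPM in space_1g (0.25 ± 0.20, and -0.04 without the pair).

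For PDK4 the 60.8, 74.6 and 93.9 CPM of space_microg stood against 14.4 and 70.6 CPM in space_1g, at 1.20 ± 0.96 (adjusted p = 0.912). The second centrifuged library was inside the weightless range, and without space_1g replicate 1 the difference was 0.09. PDK1 gave 0.30 ± 0.48, PDK2 0.09 ± 0.21 and PDK3 -0.06 ± 0.29, or -0.43, -0.12 and -0.35 without the pair. NDRG1, with 203, 123 and 134 CPM in space_microg, against 410 and 139 CPM in space_1g, gave -0.67 ± 0.47 (adjusted p = 0.912), and 0.10 without the pair. EGLN3 had 1.57, 0.50 and 0.54 CPM in space_microg, against 1.17 and 1.66 CPM in space_1g (-0.41 ± 0.33, and -0.56 without the pair). EGLN1 had 87.4, 78.3 and 93.6 CPM in space_microg, against 53.5 and 93.0 CPM in space_1g (0.29 ± 0.25, and -0.11 without the pair). Of the other HIF targets, 15 were higher and 20 lower (median -0.11, or -0.05 without the pair). EDN1, the 1 of 35 at an unadjusted p under 0.05, against 1.32% of all genes, had 49.4, 31.0 and 42.6 CPM in space_microg, against 11.1 and 24.2 CPM in space_1g (1.24 ± 0.47, adjusted p = 0.912), and the difference was 0.71 without the pair. The pyruvate dehydrogenase genes were higher for 9 of 11 (median 0.15), with 2 of 11 free of overlap, against 14.2% of all genes, and 0 at an unadjusted p under 0.05. Without the pair 7 of the 11 were higher and 4 lower, with a median of 0.00.

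**Figure D4:**
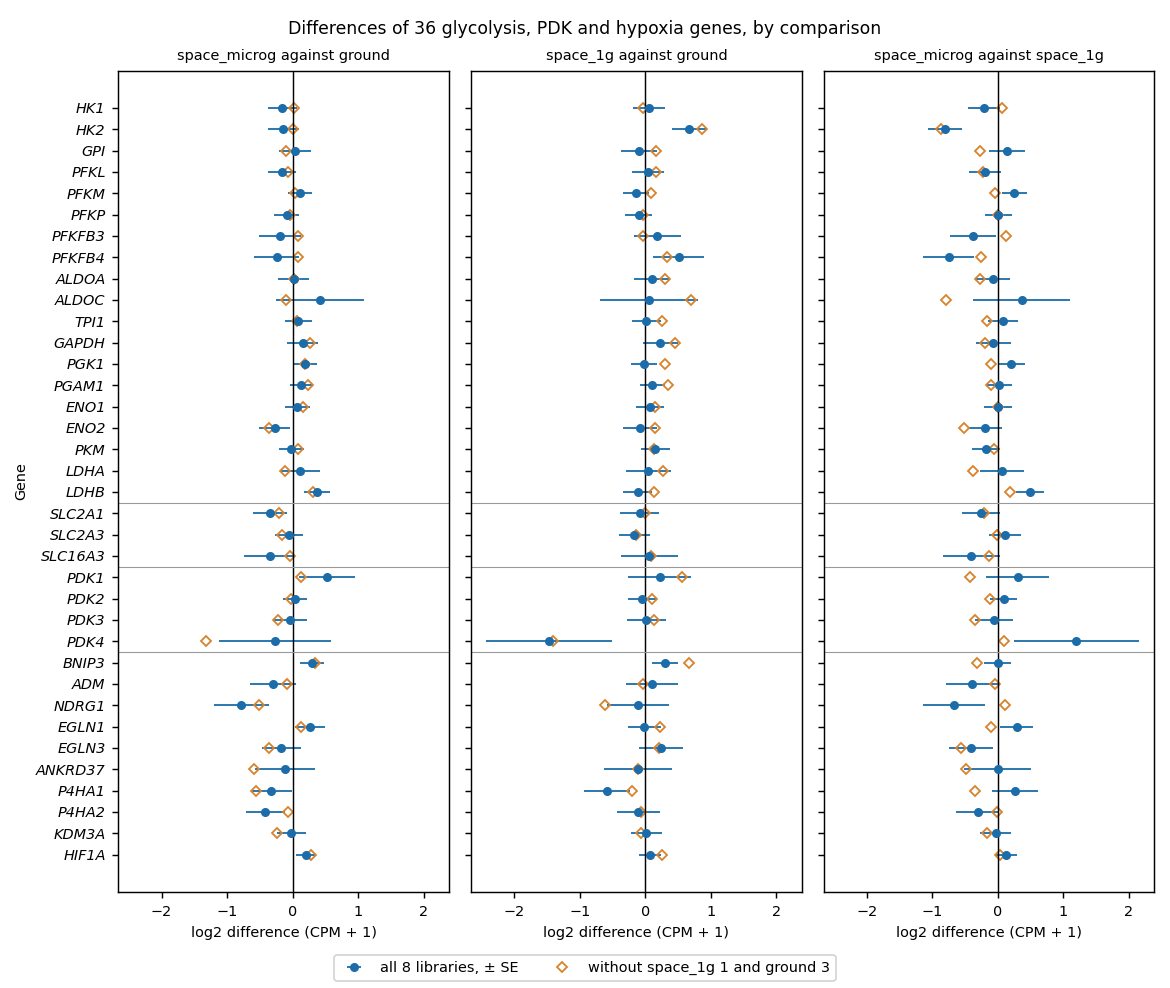
Filled points are log2(CPM + 1) differences ± SE from limma over all 8 libraries, and open diamonds the same without space_1g replicate 1 and ground replicate 3, for the 36 genes in each comparison. Most lie near 0; in space_microg against ground PDK4 is at -0.27 with all libraries and at -1.32 without the pair, and in space_microg against space_1g HK2 is at -0.81 and at -0.87.

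Ratios of isozymes within a library do not depend on scaling between libraries, and 12 of them were compared in 3 pairs of groups by two-sided exact permutation tests. The GC content and length trend of a library, strongest in space_microg replicate 2, can still enter these ratios and was not removed from them. The design cannot give a p below 0.1, and the adjusted p-values of all 36 tests were 0.8 or above. The log2 ratio of HK2 to HK1 averaged -3.98 ± 0.19 in space_microg (SD, n = 3), -3.33 ± 0.48 in space_1g (n = 2) and -3.99 ± 0.06 in ground (n = 3). It was higher in both centrifuged libraries than in any other, which gave p = 0.1 (exact permutation test, the smallest possible) in each comparison with space_1g. The ratio was -3.67 and -2.99 in space_1g replicates 1 and 2, and space_microg replicate 1, at -3.77, was close to the first. HK1 itself was at 242 and 165 CPM in space_1g replicates 1 and 2. The log2 ratio of PDK4 to PDK1 was 0.22, 0.26 and 0.99 in space_microg, -0.84 and -0.04 in space_1g, and 2.13, 1.79 and -0.05 in ground libraries. It was higher in every weightless library than in both centrifuged ones (exact permutation p = 0.1, the smallest possible), while the ground libraries spanned both.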

How the data were processed

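RNA was sequenced from 8 libraries of HMEC-1 cells; per the labels' protocols, total RNA was depleted of ribosomal RNA and made into libraries with a stranded kit. Per the submitters' processing notes, the tools were STAR 2.5.3, featureCounts, edgeR, CASAVA 1.8.2 and FastQC, and the builds hg38 and GRCh38; their settings are not given in the sources used here. The values the authors deposited are a normalised signal, read counts scaled for library size, though not by it alone, and called CPM per the labels. In every library they were whole multiples of the value of 1 read (0.0285 to 0.0398 CPM) for 100% of genes within 1e-06 read, so reads were recovered by division.

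The test was limma 3.58.1 in R 4.3.3 on log2(CPM + 1), which understates differences of low genes, with at least 1 CPM in at least 2 libraries (16103 of 16153 genes), all 8 libraries in one fit, a mean trend, two-sided, with Benjamini-Hochberg adjustment over all genes and a threshold of 0.05. Errors of differences are SE. The test was planned for CPM and kept for the scaled CPM. As alternatives, edgeR 4.0.16 and DESeq2 1.42.0 were run on the recovered reads, beside another pseudocount (0.25 CPM), no filter, median-of-ratios scaling, 2 groups only, a replicate block, GC and length correction, each library left out, and 2 libraries left out together. The steps were tested on simulated data with planted changes and spread drawn independently for each gene. Those data held no libraries that stood apart and no GC content trend, so they do not show how the test behaves with either. Replicate pairs differed beyond counting noise (chi-square per degree of freedom 19.5 to 205.5), so none was treated as a duplicate.

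The 36 genes, the other lists and the 2 libraries left out were chosen with earlier results of these data known. Values in every library are given for the 8 genes with the smallest unadjusted p per comparison and the 4 PDK kinases; LDHA, ALDOC, PGK1 and SLC16A3, and P4HA1 in space_microg against ground, were added once their values had been seen. Of each other list, genes come from the 4 with the smallest p per comparison. Exon lengths are unions of exons in GENCODE 29. Promoter sequences are from RefSeq (GRCh38.p14).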

Additional observations from a re-analysis of the deposited data

How the results depend on the processing

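No member of the set was called in any comparison under any alternative run, and the median of the 36 genes moved by less than the SD of library medians within groups (0.17) in each. Over all genes, DESeq2 on recovered reads called 3 in space_microg against ground, where limma and the other alternatives called 0. Signs under each alternative were followed only for the genes chosen by p-value rank in each comparison and the 4 PDK kinases. Leaving out both libraries that stood apart, an alternative chosen after seeing the data, turned 8 of the 36 genes in space_microg against ground, 11 in space_1g against ground and 17 in space_microg against space_1g. Over all 16103 genes tested, 3932, 4064 and 6131 turned in these comparisons. Among the genes followed, leaving out the pair turned the sign of PDK2 in space_microg against ground (-0.018) and in space_1g against ground (0.10). In space_microg against space_1g it turned NDRG1 (0.10), PFKM (-0.044), EGLN1 (-0.11), PDK1 (-0.43) and PDK2 (-0.12). Removing the GC content and length trend turned, of the genes followed, HIF1A in space_microg against ground (-0.037). Deviations from the group means correlated at -0.68 to 0.68 between samples with the same replicate number. With so few libraries per group, and space_1g replicate 1 and ground replicate 3 standing apart, these correlations cannot show or refute pairing. The main test did not pair samples by number. The replicate block called no gene. It turned PDK1 (-0.018) and PDK3 (-0.060) in space_1g against ground and PDK3 in space_microg against space_1g (0.018). The cause of these turns was not tested.

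With each library left out in turn, signs turned, among the genes followed, for PDK2 (-0.089 to 0.12), PDK3 (-0.23 to 0.078) and PDK4 (-1.32 to 0.28) in space_microg against ground. In space_1g against ground they turned for P4HA1 (-1.19 to 0.025), BNIP3 (-0.014 to 0.61), PDK1 (-0.51 to 0.95), PDK2 (-0.26 to 0.16) and PDK3 (-0.28 to 0.31). In space_microg against space_1g they turned for NDRG1 (-1.45 to 0.10), PFKM (-0.044 to 0.55), EGLN1 (-0.11 to 0.68), PDK1 (-0.43 to 1.03), PDK2 (-0.12 to 0.30) and PDK3 (-0.35 to 0.24). Isozyme log2 ratios also turned, none of them past the threshold. In space_microg against ground these were HK2/HK1 (-0.10 to 0.074), PFKP/PFKL (-0.018 to 0.20), ALDOC/ALDOA (-0.11 to 0.92) and P4HA2/P4HA1 (-0.44 to 0.48). In space_1g against ground they were PFKM/PFKL (-0.45 to 0.088), ALDOC/ALDOA (-1.09 to 0.99), ENO2/ENO1 (-0.47 to 0.17), SLC2A3/SLC2A1 (-0.32 to 0.10), PDK2/PDK1 (-0.81 to 0.25) and P4HA2/P4HA1 (-0.43 to 1.40). In space_microg against space_1g they were ALDOC/ALDOA (-0.55 to 1.54), ENO2/ENO1 (-0.52 to 0.12), PDK2/PDK1 (-0.75 to 0.31) and P4HA2/P4HA1 (-1.49 to 0.34). In limma with a space_1g library left out, the remaining one is assumed to vary like the other groups.

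The spread between libraries, and 2 libraries in space_1g, limit these values, and counting error is largest for PDK3 and EGLN3, near 1 CPM.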
